A study of Mus musculus with 3 samples.

Results

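The genes described here are 9 members of the complement system and the acute phase response, *C1ra*, *C1s1*, *C4b*, *C2*, *Cfb*, *C3*, *Serping1*, *Cd55* and *Serpina3n*, out of 32285 genes in the deposited matrices. They were followed by day in stromal cells of the mouse fracture callus, the repair tissue that forms around a broken bone. The list was chosen by measured levels in these same data, since *C4b* and *Serpina3n* had led a group of chondrocyte-like cells in earlier work on them. The high levels of these 2 genes in such cells are therefore given as a description, and nothing is rested on them.

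Complement is a cascade of plasma proteins that tags surfaces for removal. In the classical route the paired proteases C1r and C1s cut C4 and C2, which together form an enzyme that cleaves C3, and in the alternative route factor B takes the place of C2. C1 inhibitor and CD55 restrain the cascade at its first protease and at the C3-cleaving enzymes. The liver makes most of these proteins for the blood, but fibroblasts, cartilage cells and macrophages are known to make several of them locally, and many are raised by interleukin 6, interleukin 1 and interferon together with acute phase proteins such as the serine protease inhibitor encoded by *Serpina3n*.

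The study asked which periosteal cells rebuild bone after fracture. It made 3 single-cell libraries, 1 each from C57BL/6 mice at day 7, day 10 and day 14 after a femoral fracture that was cut with scissors and fixed with a steel pin. No agent was compared, and per the study's methods mice were given buprenorphine, a painkiller, around operations. Cells were freed from the callus with collagenase and sorted as live cells without CD45, CD31 or TER119, which should remove leukocytes, endothelial cells and red cells. Mice of both sexes were used, and how many were pooled in a library is not given in the sources used here. Each day is thus 1 library of unseparated animals, day and library cannot be told apart, and no test between days was possible.

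Values are counts of unique molecular identifiers (UMIs, each standing for 1 captured RNA molecule) summed over the cells of a class and divided by all UMIs of that class, per 1000000 UMIs (CPM). Intervals are 95% and cover counting error only. Cells with 0 UMIs of *Ptprc*, which encodes CD45, were put in 5 classes by the marker they were high for, at 1000 CPM or more of *Ucma*, *Aspn*, *Ifitm5* or *Rgs5* or 5000 CPM or more of *Col10a1*, with at least 3 UMIs of that marker. Day 10 held 1399 *Ucma*-high, 2003 *Aspn*-high, 601 *Col10a1*-high, 75 *Ifitm5*-high and 74 *Rgs5*-high cells. Day 14 held 808, 3988, 1509, 261 and 201 cells of these classes in the same order. A further 2435 cells at day 10 and 2913 at day 14 were high for none of the markers.

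Most classes carried the markers of the cells they were meant to stand for. Summed levels of 7 chondrocyte genes were highest in *Ucma*-high cells (67585 and 58536 CPM on the 2 days). Those of 7 osteoblast genes were highest in *Ifitm5*-high cells (124841 and 113224 CPM), those of 7 pericyte genes in *Rgs5*-high cells (6362 and 5895 CPM) and those of 5 genes of *Postn*+ osteoprogenitors in *Aspn*-high cells (19846 and 18851 CPM). The exception was the list of 5 hypertrophic chondrocyte genes, which stood at 58265 and 56875 CPM in *Col10a1*-high cells but higher, at 71527 and 77424, in *Ifitm5*-high cells. *Rgs5*-high cells were the least clean class, since 26 of 74 at day 10 and 73 of 201 at day 14 were also high for another marker.

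The day 7 library stands apart from the other two. Of its 7017 cells within the limits on genes, mitochondrial and hemoglobin UMIs, 6284 had 2 or more *Ptprc* UMIs, against 4 of 6593 at day 10 and 119 of 9853 at day 14. Its median cell had 5056 UMIs, against 17370 and 15802. Only 33 *Ucma*-high, 24 *Aspn*-high, 8 *Col10a1*-high and 1 *Ifitm5*-high cells and no *Rgs5*-high cell remained, so day 7 values of these classes are given apart and enter no comparison. From 29 to 42 cell barcodes were shared by each pair of libraries.

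Liver transcripts were nearly absent, with a summed level of *Alb*, *Apoa1* and *Ttr* of at most 0.656 CPM in every marker class at day 10 and day 14. Neutrophil transcripts did move with day. The summed level of 6 neutrophil genes went from 1.64 to 39.5 CPM in *Ucma*-high cells and from 3.50 to 202 CPM in *Aspn*-high cells between day 10 and day 14, and in the other 3 classes it went from 0.766-6.16 to 26.7-220 CPM. The 119 cells with 2 or more *Ptprc* UMIs at day 14 had 224485 CPM of the same genes.

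The 9 genes divided among 3 of the 5 classes. At day 10 the highest class was *Ucma*-high for *C4b*, *C3* and *Serpina3n*, *Aspn*-high for *C1ra* and *Cd55*, and *Rgs5*-high for *C1s1*, *C2*, *Cfb* and *Serping1*. At day 14 the picture differed for *Cfb* alone, which was then highest in *Aspn*-high cells. The highest class did not differ from the next beyond counting error for *C1ra* and *Cd55* at day 10 and for *Cfb* at day 14. No member was highest in *Col10a1*-high or *Ifitm5*-high cells on either day.

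**Figure D1:**
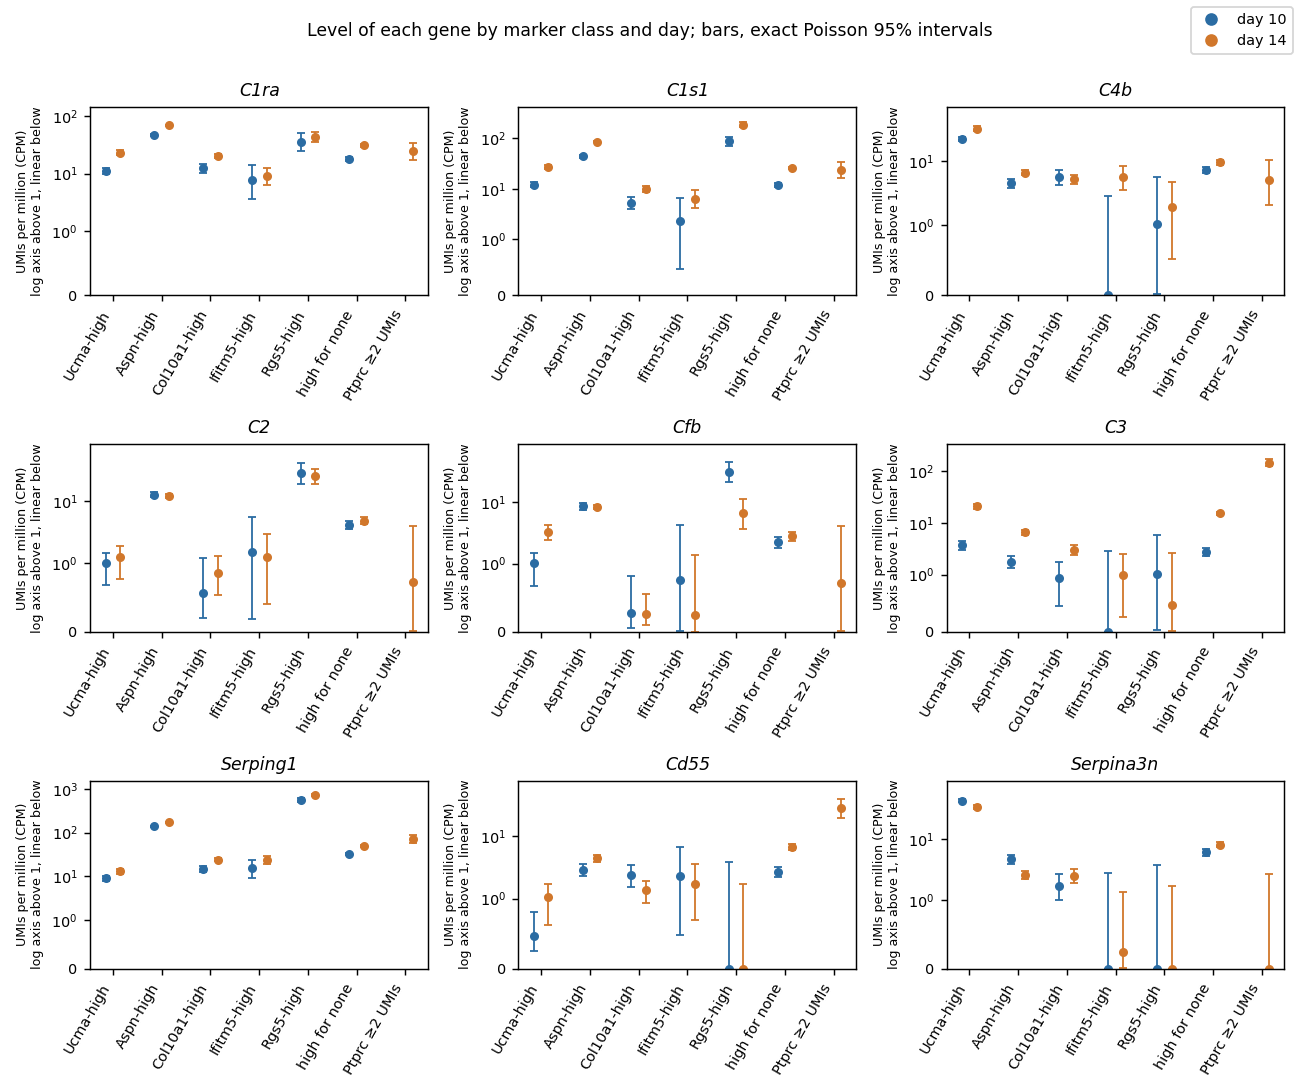
Level of each of the 9 genes (CPM, log axis above 1 and linear below) in the 5 marker classes, in cells high for none of the markers and in cells with 2 or more *Ptprc* UMIs, at day 10 (blue) and day 14 (orange), with exact Poisson 95% intervals. *C4b*, *C3* and *Serpina3n* peak in *Ucma*-high cells among the marker classes, while *Serping1* reaches 560 and 744 CPM in *Rgs5*-high cells.

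Against the summed other marker classes, a member was called when the log2 ratio was 1 or more in either direction and the level was 10 CPM or more on either side. In *Ucma*-high cells 2 members were called higher and 3 lower at day 10, where 3.28% of all genes tested were higher and 12.4% lower, and 3 higher and 3 lower at day 14 (3.55% and 12.1%). In *Aspn*-high cells 4 were higher and 2 lower on both days, against 10.6% and 4.9% of all genes at day 10 and 11.4% and 5.73% at day 14. In *Rgs5*-high cells 4 were higher and 2 lower at day 10 (16.1% and 10.6%), and 3 higher and 1 lower at day 14 (13.7% and 9.4%). No member was called higher in *Col10a1*-high cells, where 6.89% and 6.16% of all genes were on the 2 days, or in *Ifitm5*-high cells (5.63% and 4.68%). In *Col10a1*-high cells 5 were lower at day 10 and 4 at day 14 (11.6% and 14.9% of all genes), and in *Ifitm5*-high cells 5 and 3 (16.2% and 16.0%). Because the list was chosen with such results known, and 4 to 7 of the 9 passed the level filter in a given class and day, these counts are descriptions.

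*C1ra* and *C1s1* encode the C1r and C1s proteases that start the classical route. They lie next to each other on chromosome 6 in opposite directions, *C1ra* at chr6:124512405-124523443 on the plus strand and *C1s1* at chr6:124530345-124542359 on the minus strand (GRCm38), with 6901 bases between them. Each has a close copy nearby, *C1rb* and *C1s2*, and reads that fit both copies may have been dropped, so the levels are uncertain to that extent. Neither copy exceeded 0.0771 CPM in any class.

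The RefSeq promoter windows of the pair (GRCm38.p6, 250 bases before to 50 after a start, coding strand) are shown because both genes were higher at day 14 in the same cells. *C1s1* has another annotated start just upstream, whose window is not printed. Most of the *C1ra* window lies inside the gene span given above, which begins upstream of the RefSeq start used here. Capitals mark matches on either strand to TTNNGNAA, letters that the C/EBP factors are known to prefer, and to TTCNNNGAA, letters that STAT factors are known to prefer.
C1ra chr6:124512371-124512670: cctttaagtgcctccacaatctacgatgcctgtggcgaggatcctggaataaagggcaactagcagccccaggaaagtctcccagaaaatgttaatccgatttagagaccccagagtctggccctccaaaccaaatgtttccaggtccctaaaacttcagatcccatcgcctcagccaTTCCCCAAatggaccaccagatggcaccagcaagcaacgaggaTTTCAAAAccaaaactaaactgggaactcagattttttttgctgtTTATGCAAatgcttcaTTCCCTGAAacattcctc
C1s1 chr6:124542272-124542571: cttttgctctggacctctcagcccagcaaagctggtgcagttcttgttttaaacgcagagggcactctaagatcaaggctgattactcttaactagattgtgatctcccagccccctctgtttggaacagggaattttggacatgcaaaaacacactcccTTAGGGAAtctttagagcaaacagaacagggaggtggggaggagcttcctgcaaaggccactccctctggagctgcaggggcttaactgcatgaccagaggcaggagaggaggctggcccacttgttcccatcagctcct
TTNNGNAA occurred 3 times in the *C1ra* window and once in that of *C1s1*, and 40.7% of 32851 promoters of this length hold it. TTCNNNGAA occurred only in *C1ra* of the printed windows, and 8.30% of promoters hold it. The NF-kB consensus (4.51% of promoters) and an interferon-response consensus (3.44%), searched on both strands too, were not found in any of the windows of *C1ra*, *C1s1*, *C3*, *Cd55* or *Serpina3n*. Such matches are descriptions of letters and not of bound sites.

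*C1ra* stood at 46.6 CPM (44.2 to 49.0) in *Aspn*-high cells at day 10, 35.9 (25.0 to 49.96) in *Rgs5*-high, 12.3 (10.3 to 14.6) in *Col10a1*-high, 11.2 (9.95 to 12.5) in *Ucma*-high and 7.66 (3.67 to 14.1) in *Ifitm5*-high cells. At day 14 the corresponding levels were 68.6 (66.4 to 70.8), 43.7 (35.3 to 53.6), 20.2 (18.5 to 22.0), 23.0 (20.8 to 25.4) and 9.16 (6.45 to 12.6) CPM. *Aspn*-high and *Rgs5*-high cells differed beyond counting error at day 14 but not at day 10, and *Col10a1*-high and *Ucma*-high cells on neither day. *C1s1* had a steeper order, with 88.3 CPM (70.6 to 109) in *Rgs5*-high cells at day 10, 44.1 (41.8 to 46.5) in *Aspn*-high, 12.2 (10.9 to 13.6) in *Ucma*-high, 5.24 (3.96 to 6.80) in *Col10a1*-high and 2.30 (0.474 to 6.72) in *Ifitm5*-high cells. At day 14 it was 188 (170 to 208), 86.3 (83.9 to 88.7), 27.5 (25.1 to 30.1), 9.87 (8.70 to 11.2) and 6.44 (4.20 to 9.43) CPM. Each neighbour in that order differed beyond counting error on both days, except the last pair at day 10.

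Both protease genes were higher at day 14 than at day 10 in *Ucma*-high cells, *C1s1* 2.26-fold (log2 1.18, 0.97 to 1.38) and *C1ra* 2.06-fold (log2 1.04, 0.82 to 1.26). In *Rgs5*-high cells *C1s1* was 2.13-fold higher (log2 1.09, 0.75 to 1.45), while *C1ra* differed by log2 0.28 (-0.29 to 0.89). In *Aspn*-high cells *C1s1* came to log2 0.97 (0.88 to 1.06) and *C1ra* to 0.56 (0.47 to 0.65), both under the 2-fold line. After each cell had been thinned to 2000 UMIs, the share of *Aspn*-high cells with a *C1s1* UMI was 8.77% (7.56 to 10.1) at day 10 and 15.8% (14.7 to 17.0) at day 14. Without thinning the shares were 34.2% and 53.4%, at median depths of 15297 and 14424 UMIs. The 116 thinned cells with 2 or more *Ptprc* UMIs at day 14, of median depth 8505 UMIs before thinning, gave 4.31% (1.41 to 9.77). The share in *Aspn*-high cells lay apart from that at day 14, while the day 10 interval, from another library, overlapped it. These *Ptprc*-positive cells also held 2634 CPM of the 5 genes of *Postn*+ osteoprogenitors, against 107 CPM in those of day 7. Of 5950 thinned *Ptprc*-positive cells of day 7, 1 had a *C1s1* UMI (0.0168%, at most 0.0936% by the interval).

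*C4b* encodes C4, the first substrate of C1s, and *C2* encodes the protease that joins it. *C4b* lies at chr17:34728380-34743882 and *C2* at chr17:34862604-34898265, both on the minus strand, with the near-identical *C4a* between them. Reads shared with *C4a* may have been dropped or split, and *C4a* was at most 0.495 CPM in every class. *C4b* was at 22.6 CPM (20.9 to 24.4) in *Ucma*-high cells at day 10 and 32.8 (30.2 to 35.7) at day 14. *Aspn*-high cells had 4.54 and 6.67 CPM, *Col10a1*-high 5.61 and 5.21, *Rgs5*-high 1.03 and 1.88, and *Ifitm5*-high 0 UMIs at day 10, where 3 UMIs would be 2.30 CPM, and 5.69 CPM at day 14. *Ucma*-high cells were thus 4.92-fold above the other marker classes together at day 10 and 5.40-fold at day 14, a contrast close to that by which the gene was chosen. *Aspn*-high and *Col10a1*-high cells did not differ beyond counting error at day 10, nor did *Aspn*-high, *Ifitm5*-high and *Col10a1*-high cells, taken as neighbours, at day 14.

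*C4b* was carried by a minority of *Ucma*-high cells. UMIs were found in 345 of 1399 cells (24.7%) at day 10 and in 201 of 808 (24.9%) at day 14. Cells with 5 or more UMIs went from 15 to 37, and the top 5% of cells held 44.6% of *C4b* UMIs at day 10 and 51.4% at day 14. After thinning, 3.87% (2.92 to 5.02) of cells had a UMI at day 10 and 5.33% (3.88 to 7.11) at day 14. The *Ptprc*-positive cells at day 14 stood at 1.72% (0.209 to 6.09), an interval that overlaps. Of the 5950 thinned *Ptprc*-positive cells of day 7, 5 had a *C4b* UMI (0.0840%, 0.0273 to 0.196). Cells just inside the *Ucma* threshold had 24.3 CPM of *C4b* at day 10 and 21.1 at day 14, and cells just outside it 12.6 and 16.2 CPM.

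*C2* followed the protease genes and not *C4b*. Its level was 28.7 CPM (19.1 to 41.5) in *Rgs5*-high cells at day 10 and 24.9 (18.7 to 32.6) at day 14, and 12.6 (11.4 to 14.0) and 11.9 (11.0 to 12.8) in *Aspn*-high cells. The other 3 classes lay between 0.561 and 1.53 CPM on both days, and neighbours among them did not differ beyond counting error. Between day 10 and day 14 *C2* differed by log2 -0.09 (-0.27 to 0.10) in *Aspn*-high and by -0.20 (-0.89 to 0.51) in *Rgs5*-high cells, so that a difference of 2-fold lay outside both intervals.

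*Cfb* encodes factor B, the counterpart of *C2* in the alternative route. It lies at chr17:34856374-34862518 on the minus strand, 85 bases from the end of *C2* in the same direction, so reads that run past the upstream gene could not be told from *Cfb* reads. *Rgs5*-high cells had 30.8 CPM (20.8 to 44.0, from 30 UMIs) at day 10 and 6.59 (3.60 to 11.05, from 14 UMIs) at day 14. *Aspn*-high cells had 8.53 (7.53 to 9.63) and 8.32 (7.59 to 9.10), *Ucma*-high cells 1.02 and 3.25, *Ifitm5*-high 0.766 and 0.248 and *Col10a1*-high 0.281 and 0.270 CPM. *Cfb* in *Rgs5*-high cells was the only member called lower at day 14 than at day 10 in any class, at 0.214 of its earlier level (log2 -2.23, -3.25 to -1.27), where 3.08% of all genes were called lower and 3.96% higher. The gene was highest in *Rgs5*-high cells at day 10, log2 1.85 above *Aspn*-high cells, and these classes no longer differed beyond counting error at day 14 (log2 0.34, -0.42 to 1.22).

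Of 8 interferon-response genes, 2 of the 7 that reached 10 CPM in *Rgs5*-high cells were also called lower at day 14, and none higher. The 2 were *Isg15*, at 66.7 and 15.99 CPM, and *Cxcl10*, at 48.2 and 23.5 CPM, while *Irf7*, at 79.0 and 42.8 CPM, was short of 2-fold. Such calls were not particular to this class. In *Aspn*-high cells, where *Cfb* stood at 8.53 and 8.32 CPM, 4 of 5 interferon genes at 10 CPM were called lower (1.04% of all genes). In *Ifitm5*-high cells 3 of 3 were (2.28%), in *Col10a1*-high cells 1 of 2 (0.901%) and in *Ucma*-high cells 0 of 1 (0.888%). In the 9 *Rgs5*-high cells at day 10 that had 10 or more UMIs of these genes, *Cfb* stood at 70.3 CPM (35.1 to 126), and in the other 65 at 23.2 (14.0 to 36.3), with intervals that overlapped slightly. The corresponding 6 and 195 cells at day 14 gave 22.0 (2.66 to 79.4) and 5.90 (3.05 to 10.3) CPM. The split used raw UMIs without regard to depth, and the median *Rgs5*-high cell had 12522 UMIs at day 10 and 9076 at day 14. The part of interferon in the day difference was not tested.

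*C3* encodes the protein on which all routes of the cascade meet. It lies at chr17:57203970-57228136 on the minus strand. Its promoter window is shown because *C3* had the largest difference between day 10 and day 14 among the 9 genes in *Ucma*-high cells, and that of *Serpina3n* because it peaked in the same cells.
C3 chr17:57228087-57228386: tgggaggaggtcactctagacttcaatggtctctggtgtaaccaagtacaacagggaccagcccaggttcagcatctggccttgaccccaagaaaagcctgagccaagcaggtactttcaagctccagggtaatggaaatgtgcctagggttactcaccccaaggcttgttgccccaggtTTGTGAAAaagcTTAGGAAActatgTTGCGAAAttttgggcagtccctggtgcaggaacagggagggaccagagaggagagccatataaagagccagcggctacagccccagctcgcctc
Serpina3n chr12:104406458-104406757: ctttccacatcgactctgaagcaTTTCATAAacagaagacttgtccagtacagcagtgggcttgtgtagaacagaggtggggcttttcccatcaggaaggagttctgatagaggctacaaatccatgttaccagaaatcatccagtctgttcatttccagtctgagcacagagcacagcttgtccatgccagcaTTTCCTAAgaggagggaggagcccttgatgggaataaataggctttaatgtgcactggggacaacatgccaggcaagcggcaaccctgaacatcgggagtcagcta
The *C3* window holds TTNNGNAA 3 times within 70 bases of the start, beginning 70, 58 and 45 bases upstream, and the *Serpina3n* window holds it 2 times, at 227 and 56 bases upstream. Neither holds TTCNNNGAA.

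*C3* stood at 3.75 CPM (3.06 to 4.54) in *Ucma*-high cells at day 10 and at 21.1 (19.0 to 23.5) at day 14. *Aspn*-high cells had 1.75 (1.32 to 2.29) and 6.56 (5.91 to 7.26) CPM, *Col10a1*-high cells 0.936 and 3.01, and cells high for none of the markers 2.77 and 15.4. *Ifitm5*-high and *Rgs5*-high cells had 0 to 4 *C3* UMIs on each day. *C3* was 5.64-fold higher at day 14 in *Ucma*-high cells (log2 2.50, 2.18 to 2.83), the largest day difference of a called member. In *Aspn*-high cells the log2 difference was 1.91 (1.49 to 2.35) and in *Col10a1*-high cells 1.69 (0.73 to 2.80), but with levels under 10 CPM neither was called.

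The day difference of *C3* in *Ucma*-high cells came from few cells. UMIs were seen in 56 cells (4.003%) at day 10 and in 104 (12.9%) at day 14, with 5 or more UMIs in 2 and in 23 cells. At day 14 the top 5% of cells held 76.3% of *C3* UMIs, and the richest cell had 18. Thinned shares were 0.430% (0.158 to 0.934) and 3.72% (2.52 to 5.26), at median depths of 19569 and 20970 UMIs before thinning. The *Ptprc*-positive cells at day 14 stood at 22.4% (15.2 to 31.1). Cells just inside the *Ucma* threshold had 6.48 CPM of *C3* at day 10 and 17.1 (13.0 to 22.0) at day 14. Cells just outside it had 5.51 and 31.0 (25.7 to 37.1) CPM, so at day 14 the level was higher outside the threshold.

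*C3* is also a leukocyte gene here, at 338 CPM in the 6284 *Ptprc*-positive cells of day 7 and at 148 CPM in the 119 of day 14. If the *S100a8* in *Ucma*-high cells at day 14 (11.3 CPM, 0.0158% of the 71344 CPM in *Ptprc*-positive cells) were leukocyte RNA and brought *C3* along in the same ratio, it would account for 0.0234 of the 21.1 CPM. In *Aspn*-high cells the same sum gives 0.133 of 6.56 CPM. The sum covers only RNA that comes with *S100a8*, a neutrophil transcript. RNA of leukocytes with little *S100a8* is outside it, and its part was not tested. All 6 neutrophil genes were detected in both classes at day 14. Of 6 macrophage genes 5 were detected in each class and *Adgre1* was at 0. Their summed level was 7.97 CPM in *Ucma*-high and 17.0 CPM in *Aspn*-high cells.

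Taking all members together, 3 of the 6 that reached 10 CPM in *Ucma*-high cells were called higher at day 14 than at day 10, and none lower, where 0.705% of 7091 genes were called higher and 0.888% lower. The 3 were *C3*, *C1s1* and *C1ra*. *C3* reached 10 CPM at day 14 only (3.75 and 21.1 CPM), so it could only have been called higher. The median log2 difference of the 6 at 10 CPM was 0.80, beside -0.02 over all genes tested. In *Rgs5*-high cells *C1s1* was called higher and *Cfb* lower. *Cfb* reached 10 CPM there at day 10 only (30.8 and 6.59 CPM), so it could only have been called lower. No member was called in *Aspn*-high (0.263% and 1.04% of all genes), *Col10a1*-high (0.491% and 0.901%) or *Ifitm5*-high cells (1.31% and 2.28%).

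**Figure D2:**
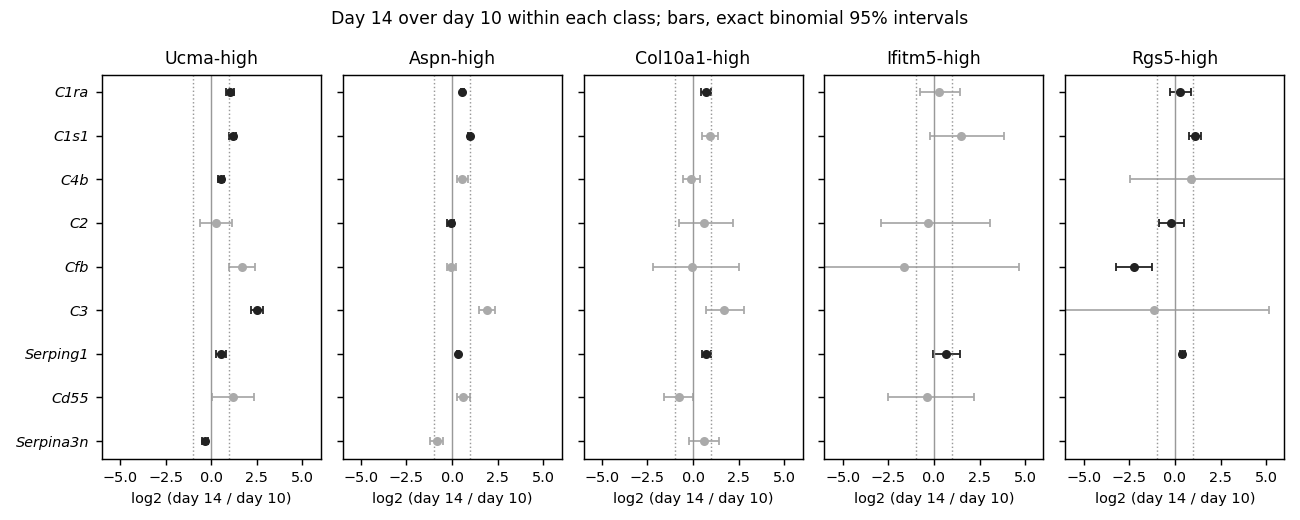
Log2 ratio of day 14 over day 10 for each gene in the 5 marker classes, with exact binomial 95% intervals; black points reached 10 CPM in either day and grey points did not, dotted lines mark 2-fold, bars that run past the axis ends are not shown in full, and genes with 0 UMIs on either day have no point. In *Ucma*-high cells *C3*, *C1s1* and *C1ra* lie past the dotted line, and in *Rgs5*-high cells *Cfb* lies at -2.23.

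*Serping1* encodes C1 inhibitor, which blocks C1r and C1s and also plasma kallikrein. It lies at chr2:84765387-84775444 on the minus strand. *Rgs5*-high cells had 560 CPM (514 to 609) at day 10 and 744 (708 to 782) at day 14, and *Aspn*-high cells had 139 (135 to 144) and 173 (169 to 176). *Ifitm5*-high cells had 15.3 and 24.3, *Col10a1*-high 14.5 and 24.0 and *Ucma*-high 8.95 (7.87 to 10.1) and 13.1 (11.4 to 14.96) CPM. Nearly every *Rgs5*-high cell carried it, with UMIs in 68 of 74 cells (91.9%) at day 10 and 193 of 201 (96.0%) at day 14, against 59.6% and 69.3% of *Aspn*-high and 12.4% and 18.2% of *Ucma*-high cells. After thinning, 66.7% (54.6 to 77.3) and 68.2% (61.2 to 74.6) of *Rgs5*-high cells had a UMI, 20.8% (19.0 to 22.6) and 26.8% (25.4 to 28.2) of *Aspn*-high cells, and 7.76% (3.61 to 14.2) of the *Ptprc*-positive cells at day 14. *Rgs5*-high cells were the shallower class, at 12522 and 9076 UMIs per median cell. The order from *Rgs5*-high to *Aspn*-high and on to the rest held beyond counting error on both days, and *Ifitm5*-high and *Col10a1*-high cells did not differ from each other. No class had a day difference of 2-fold, with log2 0.41 (0.27 to 0.55) in *Rgs5*-high and 0.31 (0.26 to 0.36) in *Aspn*-high cells.

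*Cd55* encodes a membrane protein that takes apart the C3-cleaving enzymes on the cell that bears it. It lies at chr1:130439027-130462744 on the minus strand beside its copy *Cd55b*, which had no UMI in any marker class. *Cd55* stayed low in the stroma, at 2.85 CPM (2.29 to 3.52) in *Aspn*-high cells at day 10 and 4.35 (3.83 to 4.93) at day 14. *Ucma*-high cells had 0.473 and 1.06, *Col10a1*-high 2.34 and 1.35 and *Ifitm5*-high 2.30 and 1.73 CPM. Of the 25 UMIs in *Col10a1*-high cells at day 10, 15 came from 1 cell. *Rgs5*-high cells had 0 UMIs on both days, where 3 UMIs would be 3.08 and 1.41 CPM. *Ptprc*-positive cells had 46.4 CPM at day 7 and 27.4 at day 14.

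*Serpina3n* encodes a secreted inhibitor of serine proteases, related to human antichymotrypsin, and belongs to a cluster of near copies on chromosome 12, where it lies at chr12:104406729-104414329 on the plus strand. Reads shared with *Serpina3f*, *Serpina3g*, *Serpina3i* or *Serpina3m* may be missing. It stood at 41.9 CPM (39.5 to 44.4) in *Ucma*-high cells at day 10 and 33.0 (30.3 to 35.8) at day 14, 11.3-fold and 13.7-fold above the other marker classes together (the latter log2 3.78, and 4.46 with doubled marker thresholds), again a contrast close to that by which the gene was chosen. *Aspn*-high cells had 4.67 and 2.60 CPM and *Col10a1*-high cells 1.68 and 2.51. *Rgs5*-high cells had no UMI on either day and *Ifitm5*-high cells had 1 in all. *Serpina3n* was the only member at 10 CPM or more in *Ucma*-high cells with a lower level at day 14, by log2 -0.35 (-0.49 to -0.20), short of 2-fold.

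*Serpina3n* was nearly absent from leukocytes, at 0.0832 CPM in the *Ptprc*-positive cells of day 7 and with 0 UMIs in those of day 14, where 3 UMIs would be 2.16 CPM. UMIs were found in 30.9% of *Ucma*-high cells at day 10 and 30.6% at day 14. Thinned shares were 6.53% (5.29 to 7.95) and 5.82% (4.31 to 7.67), and 0 of 116 thinned *Ptprc*-positive cells had a UMI, which allows up to 3.13% by the exact interval. Cells just inside the *Ucma* threshold had 36.9 CPM at day 10 and 23.6 at day 14, and cells just outside it 14.4 and 17.7 CPM.

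Within *Ucma*-high cells the level of all 3 leading genes went with *Matn4*, a cartilage matrix gene. In the 859 cells at 500 CPM or more of *Matn4* at day 10, *C4b* stood at 29.6 CPM (26.97 to 32.4), against 13.2 (11.2 to 15.5) in the other 540. At day 14 the 484 *Matn4*-high cells had 51.1 (46.6 to 55.9) and the other 324 cells 10.4 (8.24 to 13.0) CPM, a 4.91-fold difference. *Serpina3n* was 56.3 against 22.6 CPM at day 10 and 40.9 against 23.2 at day 14, and *C3* was 5.08 against 1.96 and 28.6 against 11.99. All of these pairs of intervals lay apart.

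*Epyc*, which encodes the matrix proteoglycan epiphycan, divided the genes. *Serpina3n* was higher in *Epyc*-high cells, at 56.1 against 38.5 CPM at day 10 and 58.4 against 29.1 at day 14. *C4b* was higher in them at day 10 (32.4 against 20.2) but not beyond counting error at day 14 (39.3 against 31.9). *C3* was lower in them at day 10 (1.86 against 4.21 CPM) and did not differ at day 14 (18.7 against 21.5). In the few cells high for *Ihh*, a signal made by prehypertrophic chondrocytes, *Serpina3n* was at 20.03 CPM (8.05 to 41.3, 16 cells) at day 10 and 9.60 (2.62 to 24.6, 17 cells) at day 14, against 42.2 and 33.5 in the others. *C3* had 0 UMIs in the 17 *Ihh*-high cells of day 14. *Chrdl2* was high in 1 *Ucma*-high cell on each day and could not be used.

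**Figure D3:**
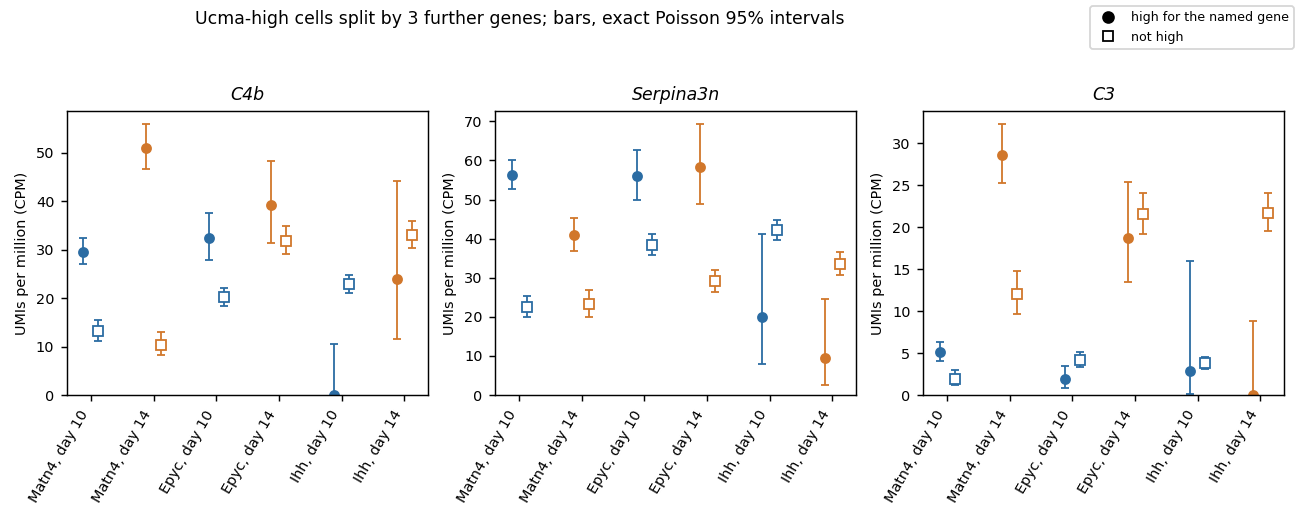
Level of *C4b*, *Serpina3n* and *C3* (CPM) in *Ucma*-high cells that were high (filled circles) or not high (open squares) for *Matn4*, *Epyc* or *Ihh* at day 10 (blue) and day 14 (orange), with exact Poisson 95% intervals. The *Matn4*-high cells lie above the rest for all 3 genes on both days, with the widest gap for *C4b* at day 14 (51.1 against 10.4 CPM).

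In *Ucma*-high cells thinned to 2000 UMIs, of the 10 genes most enriched beside a *C4b* UMI at day 10 (54 against 1340 cells), 4 were 2-fold higher beside it at day 14, namely *Zfyve1*, *Mtcp1*, *Msmp* and *Nlgn2*. For *Serpina3n* (91 against 1303 cells) 2 of 10 were, *Tbc1d19* and *Trf*. These genes had 0 to 53.2 CPM at day 14 beside the UMI, so that single counts moved them, and genes that go with either member were not detectable at this depth. *Ucma*-high cells rich in each gene, with 3 or more of its UMIs, were then set against cells with 0. This split was added after the data had been seen, and the genes named in it were picked after their values were known. *C3*-rich cells numbered 10 at day 10 and 43 at day 14, against 1343 and 704 with 0. They had 868 and 1611 CPM of *Hp*, which encodes the hemoglobin-binding haptoglobin, against 50.1 and 37.0 CPM in cells without *C3* (log2 4.11, 3.86 to 4.36, and 5.44, 5.30 to 5.59). *Lcn2*, which encodes the iron-trapping lipocalin 2, stood at 213 and 564 CPM against 0.152 and 1.82. *Hp* was seen in 31 of the 43 rich cells at day 14 and *Lcn2* in 17, and the richest single cells held 321 of 1274 *Hp* UMIs and 85 of 446 *Lcn2* UMIs. The day 10 values rest on 10 cells, 1 of which held all 72 *Hbb-bs* UMIs and 2 all 36 *Lcn2* UMIs. Of the 147 *Hp* UMIs at day 10, 123 came from 1 cell, without which *Hp* stood at 159.5 CPM. Both genes are also abundant in leukocytes, with 1656 and 992 CPM of *Hp* and 10722 and 10065 CPM of *Lcn2* in the *Ptprc*-positive cells of day 7 and day 14.

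*C3*-rich cells also had more of several other inflammatory and acute phase genes. At day 14 the neutrophil-attracting chemokine gene *Cxcl1* was at 386 against 49.2 CPM, *Cp*, which encodes the ferroxidase ceruloplasmin, at 223 against 54.2, *Lbp*, for the lipopolysaccharide binding protein, at 204 against 76.6, and *Nfkbia*, for an inhibitor of NF-kB, at 197 against 66.5. The protease genes went the same way, *C1s1* with 77.2 against 21.4 CPM and *C1ra* with 77.2 against 17.9. The cartilage gene *Col2a1* did not differ much, at 37546 against 44214 CPM. *Ucma* was at 2793 against 2947, but both sets of cells had been selected for it. The bone matrix gene *Ibsp* was lower, at 613 against 2084 CPM, as was *Col10a1*, at 98.7 against 331. At day 10 *Ibsp* went the other way, at 7233 against 565 CPM. *S100a8* and *S100a9*, the most abundant neutrophil transcripts, were no higher in *C3*-rich cells at day 14, at 10.1 against 11.9 and 11.4 against 20.5 CPM. Other genes known from leukocytes were higher, *H2-Ab1*, for an MHC class II chain of antigen-presenting cells, at 223 against 30.7 CPM and in 21 of the 43 cells, and *Apoe*, for the lipid carrier apolipoprotein E that macrophages also make, at 105 against 13.2 CPM and in 20 cells. The part of leukocyte RNA in these levels was not tested, and the classes had been built from cells without *Ptprc* UMIs. For the largest ratio at day 14, 10 genes were picked among those at 100 CPM or more. Of these, 6 were also 2-fold higher in *C3*-rich cells at day 10, where 2.18% of 1285 genes were. Among the 6, *Apoe* was seen in 2 rich cells at day 10, with an interval that spanned 0 (log2 1.39, -0.90 to 2.96), and *Lcn2* in 2. Of 10 picked at day 10, 2 were so at day 14 (1.68% of 1373).

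*Serpina3n*-rich cells (147 against 967 with 0 at day 10 and 65 against 561 at day 14) did not share the *Hp* and *Lcn2* pattern. *Hp* was at 44.9 against 54.1 CPM at day 10 and at 93.7 against 87.3 at day 14. They had more *Cebpd*, at 274 against 140 and 240 against 103 CPM, and more *Cebpb*, at 386 against 205 and 156 against 105, both of which encode C/EBP factors. *Cxcl1* stood at 558 against 177 CPM at day 10 and 89.0 against 48.4 at day 14, but 59 of its 132 UMIs in rich cells at day 14 came from 1 cell, without which it was at 50.3 CPM. *Cxcl2* stood at 230 against 60.1 and 43.8 against 19.7, and 49 of its 65 UMIs in rich cells at day 14 came from 1 cell, without which it was at 11.0 CPM. *Stat3* hardly differed, at 120 against 109 and 91.0 against 83.7 CPM. Of 10 genes picked at day 10, 10 had a ratio above 1 at day 14. The 2 that were 2-fold higher were *Cxcl2* and *Cebpd*, where 0.16% of 1250 genes were, and *Cxcl2* was not without its richest cell. Of 10 picked at day 14, 9 had a ratio above 1 at day 10 and 0 were 2-fold higher, where 0.0% of 1251 genes were.

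*C4b*-rich cells (67 against 1054 and 78 against 607) had more *Serpina3n*, at 63.0 against 33.3 CPM at day 10 and 63.8 against 28.5 at day 14, and more *C1s1*, at 18.1 against 10.6 and 50.5 against 21.6. *Serpina3n*-rich cells likewise had more *C4b*, at 30.4 against 16.3 and 65.4 against 25.8 CPM. *Ibsp* was far lower in *C4b*-rich cells, at 103 against 748 CPM at day 10 and 386 against 2137 at day 14. Of 10 genes picked at day 10, 8 had a ratio above 1 at day 14 and 1, *Zfas1*, was 2-fold higher, where 1.51% of 1257 genes were. Of 10 picked at day 14, 8 had a ratio above 1 at day 10 and 1, *Chil1*, was 2-fold higher (0.307% of 1304). Rich cells and cells with 0 had like median depths for these genes, between 17201 and 21317 UMIs, and cells high for several markers made up 0 to 10.96% of each.

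**Figure D4:**
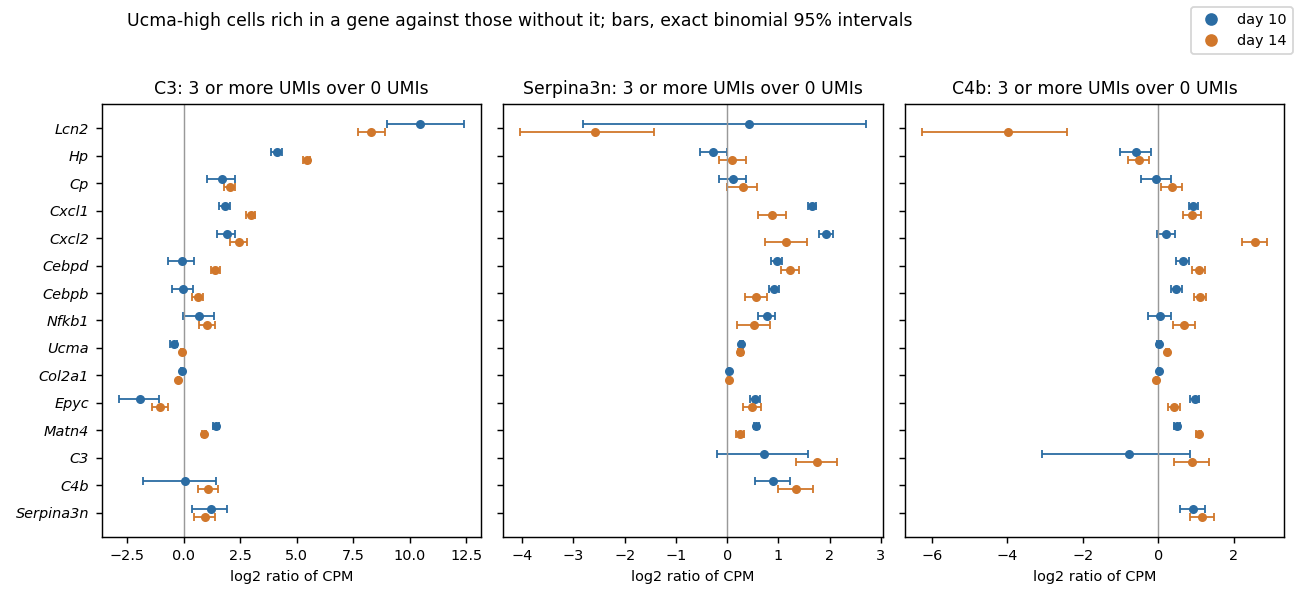
Log2 ratio of CPM in *Ucma*-high cells with 3 or more UMIs of *C3*, *Serpina3n* or *C4b* over those with 0, for 15 genes at day 10 (blue) and day 14 (orange), with exact binomial 95% intervals; a gene with 0 UMIs on either side, or the splitting gene itself, has no point, and the 3 axes differ in range. *Lcn2* and *Hp* lie far above 0 for *C3* and near or below 0 for the other 2 genes. *Col2a1* lies near 0 in all 3 panels, as does *Ucma*, for which all these cells were selected.

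Within *Aspn*-high cells the regulators and proteases were higher in cells high for *Abi3bp*, a matrix gene. *Serping1* stood at 228 against 108 CPM at day 10 and 234 against 138 at day 14, *C1s1* at 74.5 against 33.4 and 121 against 66.7, and *Cfb* at 15.3 against 6.14 and 13.2 against 5.55. The highest levels were in cells high for *Sfrp4*, a secreted Wnt-binding protein, though they were 36 at day 10 and 27 at day 14. There *Serping1* reached 760 (677 to 851) and 467 CPM (392 to 552), against 131 and 171, and *C2* reached 55.4 and 48.1, against 12.1 and 11.7. *Cfb* reached 78.0 (53.0 to 111) against 7.62 CPM at day 10, while its 20.6 (7.56 to 44.8) against 8.26 at day 14 rested on 6 UMIs. *C1ra* was higher in cells high for *Megf6*, at 129 against 45.1 and 126 against 66.9 CPM. In cells high for *Scx*, the tendon transcription factor, *C1s1* was lower, at 25.6 against 45.9 and 61.0 against 88.7. *Igf1* divided the class more evenly, and *Serping1* was somewhat higher in *Igf1*-high cells, at 161 against 124 and 190 against 153 CPM. Cells high for *Crabp2* (25 and 82) had 196 against 138 CPM of *Serping1* at day 10, and 185 against 172 at day 14, where the interval of the ratio spanned 0.

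Some pairs of these genes met in the same *Aspn*-high cells. Among thinned cells with a *Serping1* UMI, 16.1% (12.7 to 20.04) also had a *C1s1* UMI at day 10, against 6.83% (5.64 to 8.19) of cells without, and 21.8% (19.4 to 24.4) against 13.6% (12.4 to 14.9) did at day 14. Among those with a *Cfb* UMI, 17.5% (7.34 to 32.8) and 9.23% (3.46 to 19.0) had a *C2* UMI, against 2.81% (2.13 to 3.64) and 2.44% (1.98 to 2.97). The *Cfb* intervals rest on 7 of 40 and 6 of 65 cells. *Serping1* with *C1ra* gave 12.8% (9.71 to 16.4) against 9.99% (8.56 to 11.6) at day 10, where the intervals overlapped, and 15.4% (13.3 to 17.7) against 11.4% (10.2 to 12.6) at day 14. *Serping1* with *C4b* overlapped on both days, at 1.20% against 0.696% and 1.88% against 1.10%. In *Ucma*-high cells the pair of *C4b* and *Serpina3n* gave 9.26% (3.08 to 20.3) against 6.42% (5.17 to 7.87) at day 10 and 9.30% (2.59 to 22.1) against 5.63% (4.10 to 7.51) at day 14. A difference for this pair was not detectable at this depth. Of all pairs looked at there, only *C4b* with *C1s1* at day 14 had intervals that lay apart. It gave 20.9% (10.04 to 36.0, 9 of 43 cells) against 4.97% (3.54 to 6.76), while at day 10 its intervals overlapped.

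*Aspn*-high cells with 10 or more *Serping1* UMIs, 61 at day 10 and 152 at day 14, were set against the 809 and 1225 with 0, again as a split added after the data had been seen. They had 482 and 387 CPM of the chemokine gene *Cxcl12* against 43.4 and 53.6. *Eln*, for elastin, stood at 417 and 68.2 against 6.16 and 8.38 CPM, and *Sfrp4* at 356 and 35.1 against 8.21 and 6.13. Members went with it, *Cfb* at 98.4 against 2.96 CPM and 24.6 against 3.804, and *C2* at 61.8 against 5.91 and 42.1 against 5.61. Of 10 genes picked at day 10, 9 were 2-fold higher at day 14, where 4.56% of 1622 genes were, and *Bglap2* was the exception. Rich cells were deeper at day 14, with a median of 16577 UMIs against 12129. Their *S100a8* was at 189 against 38.1 CPM, but 456 of its 484 UMIs came from 1 cell.

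*Aspn*-high cells with 3 or more *Cfb* UMIs (23 and 38, against 1856 and 3675 with 0) gave a similar set. *Serping1* was at 926 against 119 CPM at day 10 and 399 against 163 at day 14, and *C3* at 29.5 against 0.981 and 37.3 against 4.98. *Cygb*, *Egfl6*, *Ifi203*, *Cxcl14*, *Sfrp4*, *Dpt*, *Serping1*, *Rarres2* and *Prss23*, all among the 10 picked at day 10, were 2-fold higher again at day 14, where 2.73% of 1684 genes were. *Rrad* was not, and without the richest cell for each, *Sfrp4* (13.2 against 13.6 CPM) and *Dpt* (45.2 against 30.7) were not either. The 10 picked at day 14 were led by the interferon-response genes *Cxcl10* (140 against 3.94 CPM), *Ifit3* (133 against 7.38) and *Ifi27l2a* (229 against 20.2), and these were not higher at day 10, at 2.95 against 6.97, 5.90 against 12.3 and 136 against 154 CPM. *Cxcl10* was seen in 4 and *Ifit3* in 3 of the 38 rich cells at day 14, with 81 of 86 and 71 of 82 UMIs in 1 cell, without which they stood at 8.36 and 18.4 CPM.

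In *Col10a1*-high cells 2 members were at 10 CPM or more, *C1ra* and *Serping1*, and both were higher in cells high for *Mmp13*, the collagenase of hypertrophic cartilage. *Serping1* stood at 19.6 (16.2 to 23.4) against 8.07 CPM (5.71 to 11.1) at day 10 and 27.9 against 17.9 at day 14, and *C1ra* at 15.2 against 8.71 and 23.2 against 15.4. Splitting by *Ihh* gave intervals that overlapped for *C1ra* on both days and for *Serping1* at day 10. In *Ifitm5*-high cells at day 14, *Serping1* was at 43.0 against 21.0 CPM in the 34 cells high for the osteocyte gene *Dmp1* and at 10.4 against 28.0 in the 65 high for *Bglap*, which encodes osteocalcin.

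The few day 7 cells gave values with wide intervals. In 33 *Ucma*-high cells *Serpina3n* stood at 110 CPM (86.2 to 139), with 32 of its 72 UMIs in 1 cell. *C4b* stood at 27.5 (16.3 to 43.5), *C3* at 9.18 (3.37 to 19.97) and *Serping1* at 22.9 (12.8 to 37.8). In 24 *Aspn*-high cells *Serping1* was at 167 (130 to 211), *C1s1* at 71.6 (48.3 to 102), *C1ra* at 57.3 (36.7 to 85.3) and *C4b* at 26.3 (13.1 to 47.0) CPM. These classes held 1982 and 2049 CPM of the 6 neutrophil genes. If the *S100a8* in these *Ucma*-high cells were leukocyte RNA that brought *C3* along in the same ratio, it would account for 2.11 of the 9.18 CPM of *C3*.

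Other complement genes were looked at through a fixed list of 44, of which 9 reached 10 CPM in a marker class at day 10 or day 14. The C1q genes (*C1qa*, *C1qb* and *C1qc*), the terminal components (*Hc*, *C6*, *C7*, *C8a*, *C8b*, *C8g* and *C9*), the lectin-route proteases *Masp1* and *Masp2*, and *Cfd*, *Cfp* and *Cfi* were all under 10 CPM in every marker class at day 10 and day 14. *Vtn*, for vitronectin, which blocks the terminal pore, was at 87.2 and 133 CPM in *Rgs5*-high cells and under 1 CPM in the others. *Clu*, for clusterin, another blocker of the pore, went from 54.9 to 140 CPM in *Ucma*-high cells. *Cd59a*, a membrane blocker of the pore, went from 30.5 to 70.3 CPM in *Aspn*-high cells. In *Ucma*-high cells 2 of the 4 list genes at 10 CPM were called higher at day 14 and 0 lower. Of all genes, 0.705% were called higher and 0.888% lower. The median of these 4 was log2 0.81, beside -0.02 over all genes tested.

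Of 20 other acute phase genes, 5 reached 10 CPM at day 10 or day 14. *Saa1*, *Saa2*, *Saa3*, *Orm1*, *Orm2*, *Apcs* and *Crp* did not on these days, while *Saa3* was at 31.0 CPM (16.5 to 53.1, from 13 UMIs) in the 24 *Aspn*-high cells of day 7. *Hp* was highest in *Aspn*-high cells, at 185 and 254 CPM, and stood at 55.2 and 111 in *Ucma*-high cells. *Lcn2* went from 1.56 to 28.4 CPM in *Ucma*-high cells and was at 10722 CPM in the *Ptprc*-positive cells of day 7. *Cp* was highest in *Col10a1*-high cells (184 and 197 CPM), *Lbp* in *Ucma*-high cells (113 and 84.3) and *Steap4* in *Rgs5*-high cells (130 and 197). Of the 4 at 10 CPM in *Ucma*-high cells, 2 were called higher at day 14, *Hp* and *Lcn2*, and 0 lower. Of all genes, 0.705% were called higher and 0.888% lower. *Lcn2* reached 10 CPM at day 14 only, so it could only have been called higher.

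**Figure D5:**
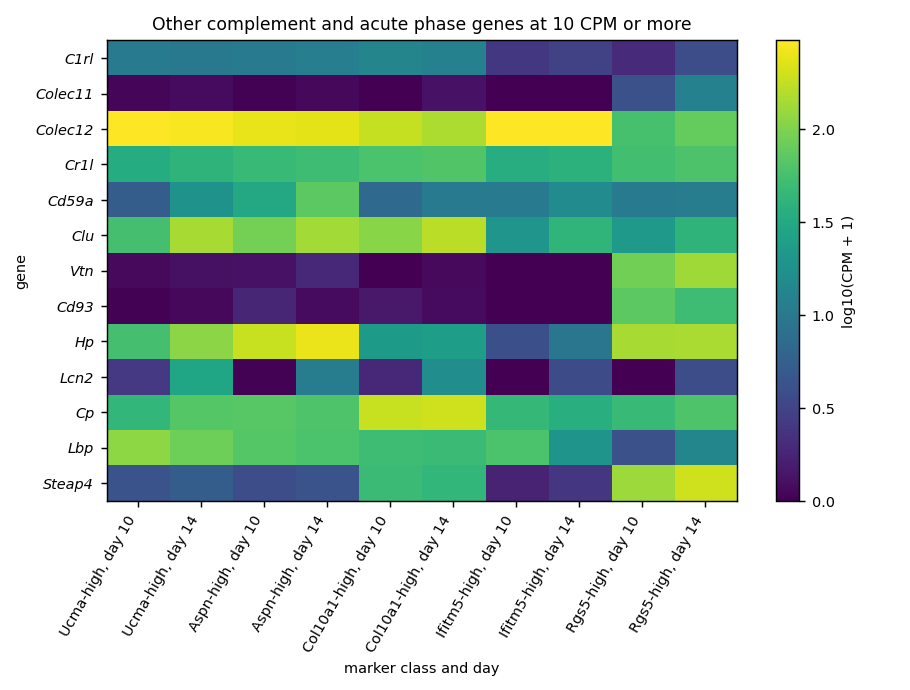
Levels of 8 other complement genes and 5 other acute phase genes that reached 10 CPM in a marker class, as log10(CPM + 1), in the 5 classes at day 10 and day 14 (color scale at right). *Vtn* and *Cd93* are seen in *Rgs5*-high cells, and *Hp* is brightest in *Aspn*-high cells at day 14 (254 CPM).

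Among 23 genes of the signals known to act upstream of the acute phase response, 19 reached 10 CPM. *Il6* was at 99.6 CPM in *Rgs5*-high cells at day 10 and 22.1 at day 14, and under 5 CPM in the other classes. *Il11*, a relative of *Il6*, was at 168 and 19.4 CPM in *Ucma*-high cells, while *Lif* was at 22.1 and 22.2. *Il6st*, which encodes the receptor chain shared by these cytokines, was highest in *Rgs5*-high cells, at 161 and 172 CPM, as was *Il1r1*, at 125 and 152. *Lifr* was highest in *Ifitm5*-high cells, at 157 and 136. In *Ucma*-high cells 4 of the 18 at 10 CPM were called lower at day 14 and 0 higher, against 0.888% and 0.705% of all genes, with a median of log2 -0.36. *Irf1* was among the genes at a lower level, at 22.7 and 7.86 CPM. The part of these signals in the day differences of the members was not tested.

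Across 10 profiles (5 classes on 2 days), the genes most like *C4b* in log2(CPM + 10) were *Calml3*, *Unc5c*, *Wfdc2*, *Atp6v0a4* and *Ccdc115*, with Pearson correlations of 0.946 to 0.963. Those most like *Serpina3n* were *Slc27a6*, *Unc5c*, *Slc14a1*, *Gtf2f2* and *Cmtm5*. Between members, *C4b* had a correlation of 0.936 with *Serpina3n*, 0.831 with *C3* and -0.515 with *Serping1*. The profiles share libraries and depth, and these values are descriptions.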

How the data were processed

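Single-cell RNA was captured from sorted callus cells with 10x Genomics reagents in 3 libraries, 1 per day. The deposited matrices hold UMI counts per gene and cell barcode, which the authors made with Cell Ranger (3.0 and genome mm10 in the submitters' processing notes; the matrix headers and the study's methods name other versions), and which were not normalized further. All values here were computed from those counts. Cells were kept at 500 to 5000 detected genes, at most 10% mitochondrial and at most 5% hemoglobin UMIs, which left 7017, 6593 and 9853 of 9103, 8801 and 12984 barcodes with 55187609, 113618580 and 154573230 UMIs at day 7, day 10 and day 14.

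Cells without *Ptprc* were classed by marker, each by the marker it exceeded most. Cells high for several markers (1, 255 and 322 on the 3 days) were kept in that class and left out in an alternative; no doublet caller was run. UMIs were summed per class and day, with exact Poisson intervals for levels, exact binomial intervals for ratios and Clopper-Pearson intervals for shares. With 1 library a day nothing was tested. A difference was called at 2-fold with at least 10 CPM on either side. A gene at 10 CPM on 1 side only could therefore be called in that direction alone. Shares of cells were compared after thinning to 2000 UMIs per cell. Likeness used a pseudocount of 10 CPM. The members and the lists of 44, 20, 23 and 8 further genes were chosen with earlier results of these data known. The genes named by rule were the members, list genes at 10 CPM or more in a marker class, the 5 genes most like *C4b* or *Serpina3n*, the 10 genes most enriched beside either in thinned cells, and the markers used to split classes at 3 UMIs and 500 CPM. The splits into cells rich in a gene and cells with 0, with the genes named in them, the same with the richest cell left out, and the split by interferon UMIs were added after the data had been seen. The scripts were checked on simulated counts. Python 3.11.15, numpy 2.4.6, scipy 1.17.1, pandas 2.3.3 and matplotlib 3.10.9 were used. The values of 1 gene of the list of 44 are not reported here.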

Additional observations from a re-analysis of the deposited data

How the results depend on the processing

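No paired analysis was possible because each day is 1 library, and for the same reason no library could be left out of a day. Of 316 alternative counts 299 stayed within 1.5 times the main count, and of 1444 alternative ratios of members 1348 moved by less than their interval. Of 614 alternative values for the 52 called ratios, 0 changed direction and 8 moved by over 1.5 times, all of them ratios of a class over the other classes. With doubled marker thresholds *Serpina3n* went from log2 3.78 to 4.46 in *Ucma*-high and from -2.29 to -2.92 in *Aspn*-high cells at day 14 and from -3.67 to -4.27 in *Col10a1*-high cells at day 10, and *Serping1* from -2.31 to -3.46 in *Ifitm5*-high cells at day 14. With means of per-cell CPM at day 10, *C1ra* went from -1.83 to -2.45 in *Ifitm5*-high and *C4b* from -3.51 to -4.09 in *Rgs5*-high cells, and the latter was -2.79 with no upper limit on genes and -2.83 with no limits on cells. No value was computed for a class under 50 cells. This held for *Ifitm5*-high cells at day 10 with doubled thresholds (25 cells). It also held for *Rgs5*-high cells at day 10 with cells high for several markers left out (48 cells). The called day differences of *C1s1* and *Cfb* in *Rgs5*-high cells were thus not checked in that setting. Counting error is the limit for every gene under 10 CPM, for *Rgs5*-high and *Ifitm5*-high cells at day 10 and for all of day 7.

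The number of members highest in *Aspn*-high cells at day 10 was 2, and the number in *Ifitm5*-high cells 0. Both became 1 with no upper limit on genes per cell, with no limits on cells at all and with halved marker thresholds. With cells high for several markers left out, 6 were highest in *Aspn*-high cells, because the *Rgs5*-high class then held 48 cells and fell under the minimum of 50. With means of per-cell CPM, 1 member in *Col10a1*-high and 1 in *Ifitm5*-high cells differed 2-fold between days, against 0 and 0.

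Of 10 genes chosen with *C4b* in thinned cells at day 10, 4 were 2-fold higher at day 14. That count was 3 with a higher number of UMIs kept per cell, 2 with cells high for several markers left out and 0 among genes at 100 CPM or more. It was 1 when cells with 3 or more UMIs were set against cells with 0 without thinning, a split that also changes the cells and the genes compared. For *Serpina3n* it was 2, and 1 with cells high for several markers left out and 0 at 100 CPM or more. Of the 5 genes most like *C4b*, 0 stayed with log2(CPM + 1) and 2 with log2(CPM + 100), and of those most like *Serpina3n* 2 stayed with log2(CPM + 1). The cause of these differences was not tested. With the richest cell left out, a setting added after the data had been seen, the log2 ratio in *Serpina3n*-rich cells at day 14 went from 1.15 to -0.84 for *Cxcl2* and from 0.88 to 0.05 for *Cxcl1*.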
